A study of Homo sapiens with 6 samples.

Results

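The genes described here are 10 transcription factor genes, FOS, FOSB, FOSL1, FOSL2, JUN, JUNB, JUND, EGR1, ATF3 and MYC, out of 20163 protein coding genes in GENCODE on GRCh37 (hg19). They were taken by name as the Fos and Jun subunits of AP-1 and 3 further early response factors, by a rule that uses no measured value, although earlier results of these data were known when the list was drawn up. For each gene, every HA peak and H3K4me3 region with at least 1 base within 1 kb of the transcription start site (TSS, the 5′ end of the annotated gene) was collected. The study used native ChIP-Seq (nChIP-Seq) of U2OS, a line from a human osteosarcoma, in which micrococcal nuclease releases nucleosomes that are precipitated without a crosslink. The ProMMP2-3xHA cells are U2OS cells that stably and constitutively express a tagged zymogen of MMP-2, a matrix metalloprotease, from a lentiviral vector, with 3xHA at its C-terminus and next to the cells' own MMP-2, and WT cells are U2OS cells without the tagged protein. All cells were kept for 2 days past confluence. HA was precipitated from ProMMP2-3xHA cells in 3 replicates, described by the authors as independent biological experiments, and H3K4me3 in 1 library of ProMMP2-3xHA cells and 1 library of WT cells. An HA control immunoprecipitation was the background of the HA peak calls. No separate list of HA in WT cells was used here. The sources used here do not say whether the ProMMP2-3xHA line is 1 clone.

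AP-1 is a dimer of a Jun protein with a Fos, Jun or ATF protein, held together by leucine zippers and bound to DNA through adjacent basic regions. FOS, FOSB, JUN, JUNB, EGR1, ATF3 and MYC are immediate early or rapid stress response genes, which are transcribed within minutes of a growth factor, serum or stress signal without new protein synthesis, whereas JUND is expressed more evenly. In osteosarcoma and bone, Fos proteins are known as drivers of tumour formation and of osteoblast and osteoclast differentiation. H3K4me3, the trimethylation of lysine 4 on histone H3, marks the nucleosomes next to active and poised promoters.

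To show the promoters that these peaks lie beside, stretches of GRCh37 just before the TSS of the canonical transcript are given 5′ to 3′ on the gene's strand. Capitals mark the motifs searched. These were the CArG box bound by serum response factor, the octamer TGANNTCA bound by AP-1 and CREB/ATF dimers, and the TATA box TATAAA, each on both strands over 400 bases before the TSS. The first stretch of FOS, chr14:75745207-75745236 on the plus strand, holds its CArG box, and the second, chr14:75745431-75745530, holds its TATA box. EGR1 is shown for a pair of CArG boxes at chr5:137801048-137801167 on the plus strand. FOSB, at chr19:45970919-45970999 and chr19:45971134-45971253 on the plus strand, holds all 3 motifs. JUN is shown for its octamer at chr1:59249720-59249919 on the minus strand, JUND for its 2 octamers at chr19:18392469-18392642 on the minus strand, and JUNB for its TATA box at chr19:12902180-12902299 on the plus strand. ATF3 is shown at the TSS of its canonical transcript, chr1:212781983-212782102 on the plus strand.
FOS, -324 to -295 bp from the TSS: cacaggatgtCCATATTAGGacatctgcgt
FOS, -100 to -1 bp from the TSS: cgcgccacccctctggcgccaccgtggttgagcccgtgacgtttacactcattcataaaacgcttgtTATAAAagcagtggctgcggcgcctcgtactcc
EGR1, -120 to -1 bp from the TSS: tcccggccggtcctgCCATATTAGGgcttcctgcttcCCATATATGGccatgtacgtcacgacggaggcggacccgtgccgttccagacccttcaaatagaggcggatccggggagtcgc
FOSB, -335 to -255 bp from the TSS: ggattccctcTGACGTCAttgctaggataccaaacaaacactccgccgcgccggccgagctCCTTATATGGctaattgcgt
FOSB, -120 to -1 bp from the TSS: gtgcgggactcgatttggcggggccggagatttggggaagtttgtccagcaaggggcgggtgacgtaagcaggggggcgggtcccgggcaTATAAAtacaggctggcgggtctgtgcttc
JUN, -200 to -1 bp from the TSS: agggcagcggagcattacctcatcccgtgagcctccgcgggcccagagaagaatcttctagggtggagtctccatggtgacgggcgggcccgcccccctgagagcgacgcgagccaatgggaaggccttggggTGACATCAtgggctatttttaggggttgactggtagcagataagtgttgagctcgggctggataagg
JUNB, -120 to -1 bp from the TSS: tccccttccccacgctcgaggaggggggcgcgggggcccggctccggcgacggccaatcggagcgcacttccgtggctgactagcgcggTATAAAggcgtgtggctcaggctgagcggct
JUND, -210 to -37 bp from the TSS: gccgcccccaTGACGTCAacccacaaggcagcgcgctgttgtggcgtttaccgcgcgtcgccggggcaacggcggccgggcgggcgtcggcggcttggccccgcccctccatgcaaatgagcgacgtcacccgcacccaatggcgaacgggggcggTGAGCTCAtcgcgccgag
ATF3, -120 to -1 bp from the TSS: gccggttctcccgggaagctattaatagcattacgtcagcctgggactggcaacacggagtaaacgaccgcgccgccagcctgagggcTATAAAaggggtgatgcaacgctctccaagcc

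CArG boxes were found before 3 of the 10 TSSs (FOS, FOSB and EGR1, the last with 4 copies), against 1.87% of all 20163 canonical TSSs. The octamer was found at FOSB, JUN and JUND, against 13.1% of all TSSs. TATAAA was found at 5 (FOS, FOSB, JUNB, ATF3 and MYC), against 14.5%, and the GC box GGGCGG, not marked in capitals, at 8, against 62.9%. The heptamer TGANTCA was found at 0 of the 10 genes, against 7.76% of all TSSs. These are letter matches and not measured binding sites. FOSB and ATF3, which had no HA peak, carried the TATA box that FOS and JUNB carried, and FOSB also held a CArG box and an octamer.

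A merged HA peak, from the authors' call on all HA replicates together, lay within 1 kb of the TSS of 8 of the 10 genes, all but FOSB and ATF3, compared to 28.2% of all protein coding TSSs. HA peaks were called in every replicate at 7 genes, compared to 16.1% of all TSSs. These were FOS, FOSL1, FOSL2, JUN, JUNB, JUND and EGR1. MYC was called in replicate 3 alone, and 2 genes were called in no replicate. H3K4me3 of ProMMP2-3xHA cells lay within 1 kb of 9 TSSs (57% of all TSSs) and H3K4me3 of WT cells of 9 (60.9%), in each case all but ATF3. Among the genes with H3K4me3 in both lines, 8 of 9 had a merged HA peak, compared to 49% of all such TSSs. With the canonical TSS in place of the 5′ end, all 10 genes had H3K4me3 in each line and 8 had a merged HA peak. The members were named and not sampled, so these counts carry no test.

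**Figure D1:**
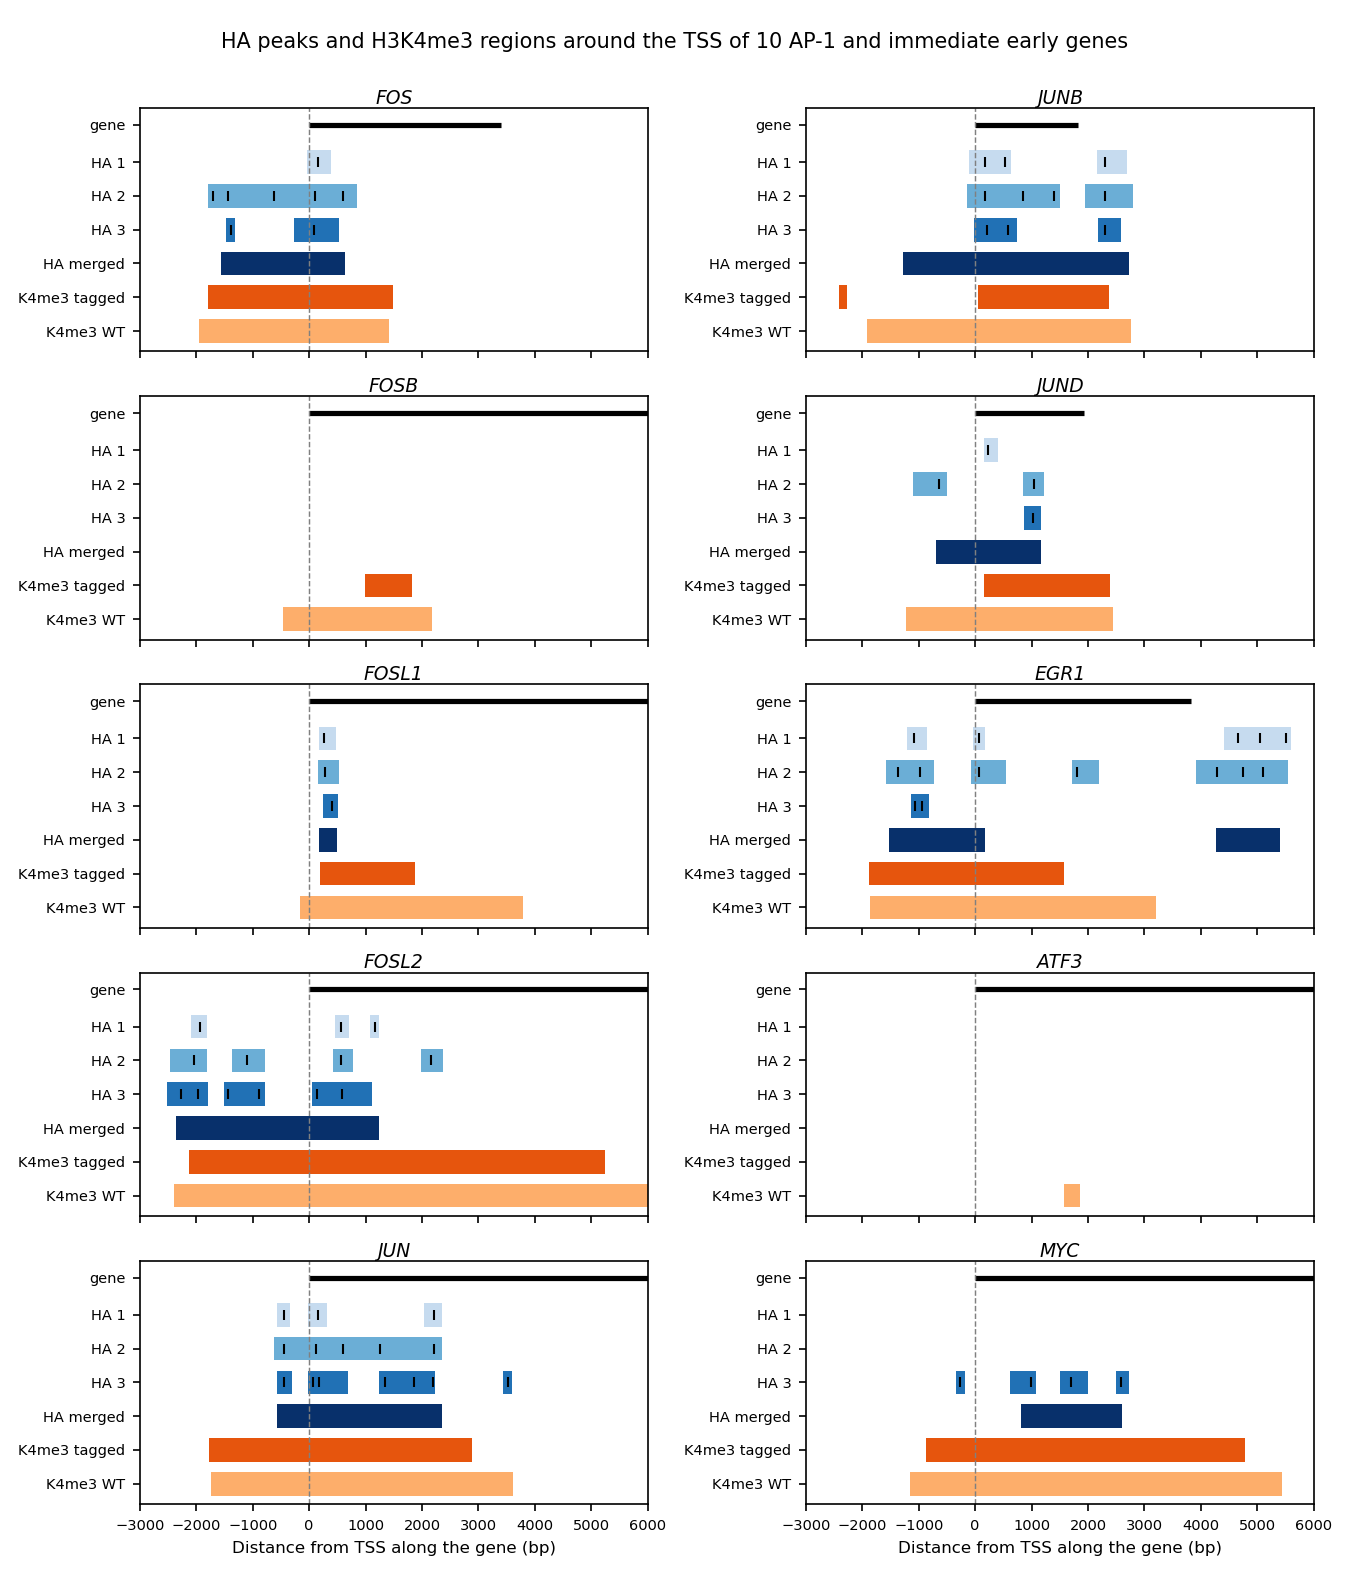
Regions around the TSS of each of the 10 genes, plotted by distance from the TSS in bp along the gene's own direction, from 3 kb before to 6 kb after it. Black bars are the annotated genes, blue bars are HA peaks of replicates 1 to 3 and of the merged list, orange bars are H3K4me3 regions of ProMMP2-3xHA (tagged) and WT cells, and black ticks are HA summits. HA blocks sit over or just after the TSS of FOS, JUN and JUNB in every replicate, whereas FOSB and ATF3 have none in the range shown.

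The depth of the HA libraries sets what these lists can show. Fragment numbers were recovered from the fold enrichment and p-value at a summit, and the mean coverage was 4.74, 4.34 and 4.23 fragments per base in replicates 1, 2 and 3. This coverage is the commonest control background of each replicate, taken as genome-wide, scaled to HA depth. Where a summit below has this background, it is the genome-wide value and not a higher local one. At the median summit of these replicates there were 50, 44 and 41 fragments. The lists hold only peaks past the authors' q-value of 0.05, so a gene without a peak is a gene where none was detectable at this depth. Higher enrichment in each cell and enrichment in more of the cells cannot be told apart.

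FOS, the partner of JUN in the classical AP-1 dimer (chr14:75745529-75748933, plus strand), had the most uniform enrichment. Its highest fold enrichment over the control in replicates 1, 2 and 3 was 9.22, 10.1 and 9.55, a mean of 9.61 ± 0.427 (SD, n = 3). Values of all 3 replicates were above those at 92.6 to 96.2% of the TSSs with a peak in the same replicate. The summits lay at +158, +102 and +88 bp, in the 5′ UTR and first coding bases of exon 1 and beyond the printed TATA box. There, 77 fragments (95% exact Poisson interval 60.8 to 96.2), 82 (65.2 to 101.8) and 77 were counted against a background of 5.17, 5.61 and 5.38 at the same depth. These intervals cover counting error only. The fold enrichment is the peak caller's, which scales the fragments to the depth of the control and adds 1 to both sides. It is lower than the plain ratio of fragments to background. The control background, here and below, was scaled up to HA depth by 3.57, 2.81 and 3.00 in replicates 1, 2 and 3. Its own counting error is not covered. The sources used here do not say whether the 3 replicates were called against the same control library. If they were, they share its error, which the SDs and p-values below do not cover. Upstream of the TSS, replicate 2 held further summits at -614, -1430 and -1695 bp and replicate 3 held 1 at -1389 bp, while replicate 1 held none. The merged peak covered -1553 to +630 bp, and so included the CArG box printed above, whereas the replicate summits on either side of that box lay at -614 and +88 bp.

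FOSL2 (Fra-2, chr2:28615315-28640184, plus strand) had the widest pattern among the Fos genes. A summit in the 5′ UTR of exon 1 recurred at +574, +568 and +579 bp in replicates 1, 2 and 3. It held 85, 96 and 84 fragments (intervals 67.9 to 105.1, 77.8 to 117.2 and 67.0 to 104.0), which overlap those at FOS. The canonical TSS of FOSL2 lies 410 bp inside the gene, so the summits of replicates 1 and 2 were 164 and 158 bp after it. The control background there was 15.5, 13.4 and 13.8 fragments after scaling, against 5.17 to 5.61 at FOS. Before scaling it was 4.35, 4.78 and 4.61, against 1.45 to 2.00 at FOS. The fold enrichment at this place was 4.64, 6.09 and 5.17. A further summit recurred at -1942, -2037 and -1961 bp, outside the 1 kb window, with 51, 53 and 57 fragments and 5.79-, 6.76- and 7.30-fold enrichment. Replicate 3 also had a peak of 5.79-fold with a summit at -1430 bp whose interval reached into the window, and this was its highest value. With the highest value of each replicate (4.64, 6.09 and 5.79) the mean was 5.51 ± 0.764 (SD, n = 3). These calls were joined in the merged list into 1 peak of 3609 bp, from -2364 to +1244 bp.

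FOSL1 (Fra-1, chr11:65659520-65668044, minus strand) had a narrow peak in every replicate. Its fold enrichment was 4.63, 6.69 and 4.56, a mean of 5.29 ± 1.21 (SD, n = 3), with summits at +256, +287 and +409 bp that moved from coding exon 1 into intron 1. Replicate 2 was above its promoter median and replicates 1 and 3 below theirs. The 46, 45 and 30 fragments at the summits had overlapping intervals (33.7 to 61.4, 32.8 to 60.2 and 20.2 to 42.8). The canonical TSS of FOSL1 lies 185 bp inside the gene, so these summits were 71 to 224 bp after it. The merged peak was 334 bp wide, the narrowest of the 8. Stronger HA lay at the other end of the gene, in a merged region from +8183 to +12285 bp that overlaps the 3′ end of FOSL1, the neighbouring gene CCDC85B and the start of FIBP. Its highest summits, at +9221, +9172 and +9753 bp, lay beyond the end of FOSL1 and inside CCDC85B, with 8.37-, 10.8- and 14.6-fold enrichment.

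FOSB (chr19:45971253-45978437, plus strand), the other Fos gene of the immediate early class, had no HA peak within 1 kb in any list. The nearest merged HA peak was 38633 bp from its TSS and the nearest replicate peaks 39484, 38352 and 44101 bp away. H3K4me3 of WT cells covered its TSS with a region of 2631 bp, from -454 to +2176 bp. In ProMMP2-3xHA cells the region was 826 bp and started at +996 bp, so FOSB counted as marked in these cells by only the last bases of the window. FOSB thus carried WT H3K4me3 over its TSS with no HA detectable at this depth.

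JUN (chr1:59242517-59249720, minus strand), which can form AP-1 with itself or with Fos proteins, had 3 recurrent HA summits. The first lay in its 5′ UTR at +165, +129 and +177 bp with 8.42-, 10.7- and 8.15-fold enrichment, a mean of 9.07 ± 1.37 (SD, n = 3), and 70, 75 and 59 fragments. The second lay upstream at -453, -444 and -449 bp, a spread of under 10 bp, with 5.57-, 10.1- and 7.44-fold enrichment. The third lay in the 3′ UTR, beyond the window, at +2206, +2221 and +2189 bp with 6.5-, 8.05- and 5.39-fold enrichment. The octamer printed above lies between the first and the second, within the merged peak of -575 to +2357 bp. In replicate 2 the places were part of 1 peak of 2982 bp, whereas in replicates 1 and 3 they were separate peaks.

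JUNB (chr19:12902300-12904129, plus strand), an intronless gene, was covered along its whole length by HA in the merged list. Its fold enrichment in replicates 1, 2 and 3 was 9.82, 12.1 and 6.78, a mean of 9.58 ± 2.69 (SD, n = 3), so the replicates spread widely and replicate 3 was lowest. The summits were nearly at the same place, +181, +177 and +204 bp, in the 5′ UTR. A separate summit just past the gene's end recurred at +2306, +2305 and +2307 bp with 92, 123 and 56 fragments. The control background there was 11.2 to 14.3 fragments, or 4 in each replicate before scaling. At the promoter summit it was 4.74, 4.34 and 4.23, the genome-wide values. The fold enrichment past the gene's end was 5.36, 8.96 and 3.93. The merged peak of 4009 bp, from -1276 to +2732 bp, joined both places and covered 100% of the 1830 bp gene. No replicate covered the whole gene. The promoter peak ended at +631, +1513 and +751 bp in replicates 1, 2 and 3, and the next peak began past the gene's end.

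JUND (chr19:18390504-18392432, minus strand), also intronless, was called in every replicate but not at the same place. Replicate 1 had its peak from +163 to +407 bp with a summit at +235 bp, 5.24-fold enrichment and 40 fragments (28.6 to 54.5). Replicate 2 had its top summit at +1048 bp with 6.97-fold enrichment and 47 fragments. Replicate 3 had its summit at +1035 bp with 7.61-fold enrichment and 52 fragments. Replicate 2 also had a weaker peak from -1101 to -501 bp, with a summit at -642 bp and 4.49-fold enrichment. The peak of replicate 1 shared no base with any peak of replicates 2 and 3. The downstream summits of replicates 2 and 3 lay 13 bp apart. At 6 of the 7 genes with a peak in every replicate, the peaks of all 3 replicates shared bases, compared to 96.1% of all TSSs with such peaks, and JUND was the exception. The recurrent place lies in the coding exon, and the bases around the summit of replicate 3, chr19:18391324-18391470 on the minus strand, are given to show the sequence there. They encode part of the basic region and of the leucine zipper, through which JUND binds DNA and its partners.
JUND, at the summit of replicate 3: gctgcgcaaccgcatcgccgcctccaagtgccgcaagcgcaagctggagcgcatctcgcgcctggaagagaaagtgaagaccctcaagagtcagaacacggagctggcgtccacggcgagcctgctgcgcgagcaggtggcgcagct

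This stretch was 66.0% G and C. The 1001 bp centred on the TSS of JUND was 77.8% G and C, the highest of the 10 genes, compared to a median of 59.1% over all TSSs and 62.4% over TSSs with a merged HA peak. ATF3 had the lowest value at 48.2%. GC content can alter how well a fragment is amplified and sequenced, and its part in these results was not tested.

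ATF3 (chr1:212738676-212794119, plus strand), a bZIP factor induced by stress that can dimerise with Jun proteins, lacked both HA and H3K4me3 within 1 kb of the 5′ end of the gene. The nearest merged HA peak was 6385 bp away, and WT cells had an H3K4me3 region of 284 bp that started at +1570 bp. Its canonical transcript starts 43427 bp further on, at the TATA box shown above. H3K4me3 was present within 1 kb of that TSS in both lines, with a region of 901 bp in ProMMP2-3xHA cells and 2037 bp in WT cells. No HA peak lay within 1 kb of that TSS in the merged or any replicate list.

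EGR1 (chr5:137801168-137804992, plus strand), a zinc finger factor whose promoter CArG boxes are printed above, had its highest HA value near the TSS upstream of them. The top summits of the peaks that reached into the window lay at -1076, -970 and -1062 bp with 5.24-, 6.41- and 4.70-fold enrichment, a mean of 5.45 ± 0.870 (SD, n = 3). They held 40, 43 and 31 fragments, whose intervals overlap. Just after the TSS, replicates 1 and 2 had a summit at +78 and +66 bp with 3.97- and 5.06-fold enrichment, and replicate 3 had none there. The fragments at that place, 53 and 54, were more than at the upstream summits. The control background was 10.7 and 8.42 fragments, or 3 in each of these replicates before scaling. Upstream it was 4.74 and 4.34, the genome-wide values. Beyond the end of the gene, replicates 1 and 2 and the merged list (+4271 to +5411 bp) held a further peak with summits from +4288 to +5518 bp, and the highest was 8.92-fold in replicate 2. Replicate 3 was again without a peak there.

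MYC (chr8:128747680-128755197, plus strand), the bHLH-zip factor that dimerises with MAX, was called by HA in replicate 3 and in the merged list but not in replicates 1 and 2. In replicate 3 the highest summit lay at +984 bp with 6.15-fold enrichment and 75 fragments (59.0 to 94.0), above 73.8% of the TSSs with a peak in that replicate. A weaker summit at -274 bp had 3.67-fold enrichment, and further summits lay in intron 1 at +1704 and +2585 bp. The control background at these places was 9.0 to 13.8 fragments, compared to a mean coverage of 4.23. The canonical TSS of MYC lies 797 bp inside the gene, so the top summit was 187 bp after it. The merged peak of 1776 bp, from +822 to +2597 bp, did not reach the 5′ end of the gene.

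The enrichment of the genes was then set against all TSSs with a peak in the same replicate, whose medians were 4.99, 5.63 and 5.00. FOS, JUN, JUNB and JUND were above the median in every replicate, 4 of the 7 genes with a peak in each, compared to 41.2% of all such TSSs. The genes above were 3 (FOS, JUN and JUNB) at a q-value of 0.001, with a window of 500 bp or with only summits within 1 kb, each without JUND. The mean log2 ratio to the median was 0.89 ± 0.047 (SD, n = 3) at FOS, 0.84 ± 0.35 at JUNB, 0.79 ± 0.11 at JUN and 0.33 ± 0.27 at JUND. At JUND, the value of replicate 1 came from another place than those of replicates 2 and 3. For each of these 4 genes the exact permutation of the sign, two-sided, gave p = 0.25, the smallest that 3 replicates allow, so no gene could pass a threshold of 0.05. FOSL2 (0.074, exact p = 0.5), EGR1 (0.057, exact p = 0.75) and FOSL1 (0.0033, exact p = 1) fell on either side of the median. Without summits that lie beyond 1 kb themselves, JUND lost its value in replicate 3. In replicate 2 it kept a weaker summit at -642 bp with 4.49-fold enrichment, below the median of 5.63. EGR1 then had a mean log2 ratio of -0.083.

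In order of mean fold enrichment, the genes were FOS, JUNB, JUN, JUND, FOSL2, EGR1 and FOSL1. JUN was higher than JUND in 3 of 3 replicates, by 2.47 ± 1.69 (SD, n = 3). JUND was higher than FOSL2 in 3 of 3 replicates, by 1.10 ± 0.636. The top summits of JUND lay at +235, +1048 and +1035 bp and those of FOSL2 at +574, +568 and -1430 bp. The SDs and orders that involve these genes thus do not describe 1 place. The FOSL2 summits behind these values held 85, 96 and 50 fragments over a background of 15.5, 13.4 and 6.15. Those of JUND held 40, 47 and 52 over the genome-wide values of 4.74, 4.34 and 4.23. In replicates 1 and 2 the order of JUND and FOSL2 thus did not hold for fragments. The other neighbours changed places between replicates. FOS was above JUNB in 1 of 3 replicates, JUNB above JUN in 2, FOSL2 above EGR1 in 1 and EGR1 above FOSL1 in 2. FOS, JUNB and JUN therefore did not differ beyond their spread, nor did FOSL2, EGR1 and FOSL1.

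**Figure D2:**
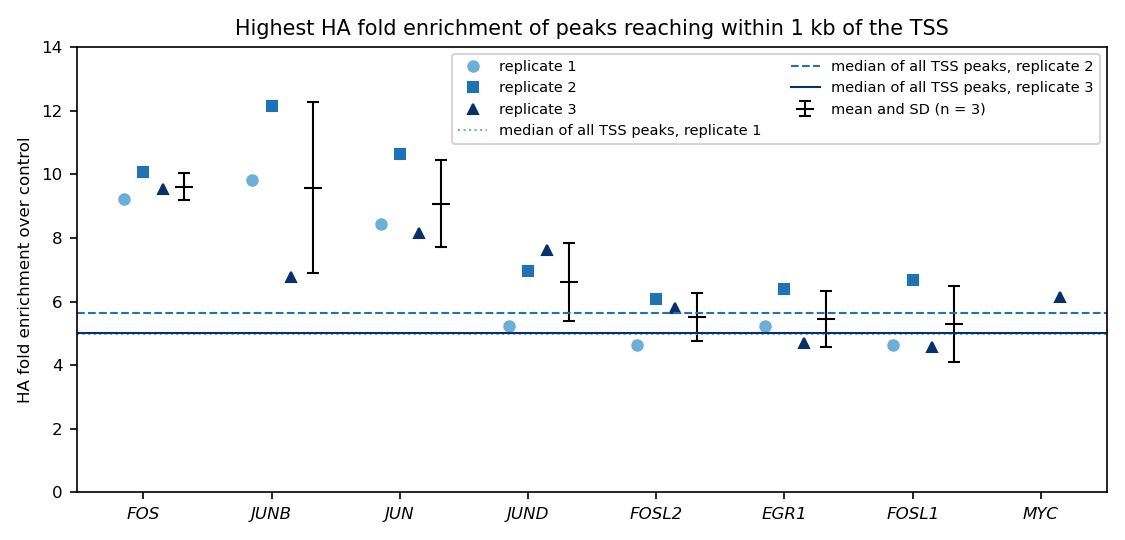
Highest HA fold enrichment over the control among peaks whose interval reaches within 1 kb of the TSS, for the 8 genes with such a peak. The summit itself lies beyond 1 kb at FOSL2 in replicate 3, JUND in replicates 2 and 3 and EGR1 in replicates 1 and 3. Points are the replicates, black bars the mean and SD over 3 replicates, and horizontal lines the median of all TSSs with a peak in each replicate (4.99, 5.63 and 5.00). FOS, JUNB and JUN lie between 6.78 and 12.1, and MYC has a value in replicate 3 only.

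The top summit lay downstream in every replicate with a peak at 6 of 8 genes, compared to 56.9% of all TSSs with a peak in at least 1 replicate. MYC counts here through replicate 3 alone. Among the 7 genes with a peak in each replicate, 5 (FOS, FOSL1, JUN, JUNB and JUND) were downstream each time, compared to 52.8% of all such TSSs. EGR1 was upstream each time, and FOSL2 was downstream in replicates 1 and 2 and upstream in replicate 3. At FOS, JUN and JUNB the top summit of every replicate lay between +88 and +204 bp. HA peaks of every replicate covered the TSS base itself at these 3 genes alone, compared to 4.33% of all TSSs.

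Merged HA peaks were wide at these genes. The median width was 2030 bp over the 8 genes, with a range of 334 to 4009 bp, compared to a median of 504 bp over all 5696 TSSs with a merged peak. Peaks of FOS, FOSL2, JUN and JUNB exceeded 2 kb, 4 of 8, compared to 8.66%. Neighbouring merged peaks were never closer than 4032 bp, against 244 to 282 bp in the replicate lists, so the merged width includes gaps between calls. The mean length covered by replicate peaks inside the window gave a median of 572.5 bp for the same 8 genes. Merged HA covered at least 25% of the gene at JUN (32.7%), JUND (61.0%) and JUNB (100%), 3 of 10, compared to 1.68% of all genes. Genes past this share were short, with a median length of 3687.5 bp compared to 27219 bp over all genes, and the Jun genes were 1830 to 7204 bp long.

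H3K4me3 regions of the genes were wider in WT than in ProMMP2-3xHA cells at 9 of 9, compared to 93.2% of all TSSs marked in both lines. The comparison has 1 library per line and describes those libraries. Neighbouring H3K4me3 regions were never closer than 1001 bp in ProMMP2-3xHA cells and 1048 bp in WT cells. Their widths and edges may therefore include gaps between calls. FOS differed least, with 3266 bp in ProMMP2-3xHA cells and 3368 bp in WT cells, a ratio of 0.970. FOSL2 (7359 and 8498 bp), JUN (4663 and 5349 bp) and MYC (5649 and 6588 bp) had ratios of 0.866, 0.872 and 0.857 and were the widest in ProMMP2-3xHA cells. EGR1 had 3456 and 5065 bp and JUND 2239 and 3664 bp. Ratios under 0.5 were found at FOSB (0.314), FOSL1 (0.424) and JUNB (0.495). The median ratio was 0.682, compared to 0.783 over all TSSs marked in both lines. With only regions that overlap the TSS base, it was 0.866 over 5 of the genes, compared to 0.817 over all such TSSs, so the median of the genes lay below that of all TSSs under the first definition and above it under the second.

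At several genes the region of ProMMP2-3xHA cells did not reach the TSS. The TSS base was inside the WT region at 9 of the 10 genes and inside the ProMMP2-3xHA region at 5 (FOS, FOSL2, JUN, EGR1 and MYC), compared to 51.7% and 39.4% of all TSSs. At JUNB the ProMMP2-3xHA region started at +60 bp and the WT region at -1909 bp. At JUND the starts were +155 and -1222 bp, at FOSL1 +197 and -161 bp, and at FOSB +996 and -454 bp. JUNB and JUND had merged HA over the TSS, FOSL1 had it from +169 bp, and FOSB had none. No depth could be recovered for the H3K4me3 libraries, so depth is unknown there, and its part in the widths was not tested.

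**Figure D3:**
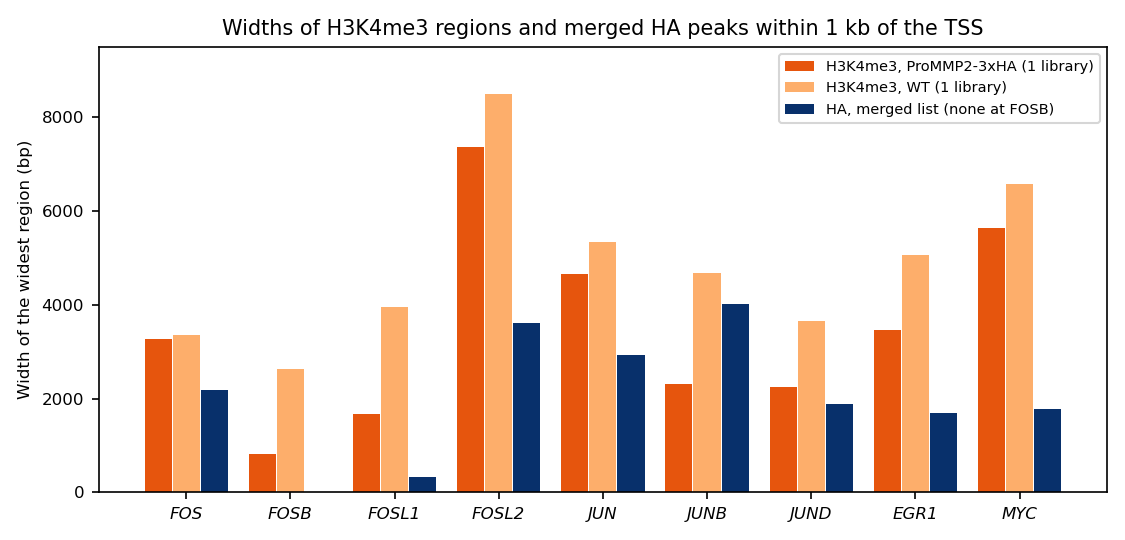
Width in bp of the widest region within 1 kb of the TSS for the 9 genes with H3K4me3 in both lines. Bars show H3K4me3 of ProMMP2-3xHA cells, H3K4me3 of WT cells (1 library each) and the merged HA peak. The WT bar is the taller of the H3K4me3 pair at every gene, with the closest pair at FOS (3266 and 3368 bp) and 826 against 2631 bp at FOSB.

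For comparison, 106 other genes of the pathway were taken as 5 lists. Merged HA peaks lay within 1 kb of 64 of them (60.4%, against 28.2% of all TSSs). They lay within 1 kb of 63 of the 88 with H3K4me3 in both lines, against 49% of all such TSSs. By list, these were 11 of 20 bZIP partners and relatives of AP-1, 5 of 13 genes of the MYC, MAX and MLX network, 13 of 19 genes of the MAPK and serum response pathway, 26 of 40 other immediate early genes and 9 of 14 textbook AP-1 target genes. Peaks in every replicate were found at 41 of the 106, against 16.1% of all TSSs, and 22 of these were among the 40 other immediate early genes. Where H3K4me3 was present in both lines, the share with merged HA was 5 of 11 in the MYC network, near the 49% of all such TSSs. It was 9 of 9 among the AP-1 targets.

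The highest mean fold enrichment was found among the other immediate early genes and exceeded that of FOS. IER3, an early response gene of cell survival, had 19.4-, 29.7- and 15.3-fold enrichment with summits at +125, +121 and +134 bp. RHOB, a small GTPase, had 14.4, 20.3 and 13.5, and DUSP1, the phosphatase that switches off MAP kinases, had 13.6, 18.7 and 11.4. In each replicate, all 3 were above FOS, JUN and JUNB. Among the targets, VIM (vimentin) had a mean of 15.1 ± 8.29 (SD, n = 3), but its summits lay beyond the window at +1140, +2110 and +1181 bp and its value of 24.5 in replicate 2 came from the farthest. The mean was 7.81 ± 1.33 at CCND1 (cyclin D1) and 6.58 ± 0.887 at HMOX1 (heme oxygenase 1). Values of 9.91 ± 3.40 at ATF4 and 9.85 ± 1.52 at CEBPB, both bZIP factors, were near those of FOS. CREM, whose TSS lies within 1 kb of that of CUL2, had 6.81 ± 1.32. Of the kinases, MAP2K1 (within 1 kb of the TSS of TIPIN) had 7.74 ± 1.14 and MAPK14 had 6.18 ± 0.843, and MLXIP was the only gene of the MYC network called in every replicate (5.30 ± 0.944).

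Several marked genes resembled FOSB in having no HA within 1 kb in any list. The bZIP genes MAF and MAFK had H3K4me3 of 4585 and 2530 bp in ProMMP2-3xHA cells, and MXI1 and MXD3, which compete with MYC for MAX, had 3897 and 2813 bp. ELK1 and ELK3, the ternary complex factors at CArG boxes, had 2020 and 1984 bp, and the immediate early genes TIPARP and KLF2 had 2124 and 1619 bp.

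**Figure D4:**
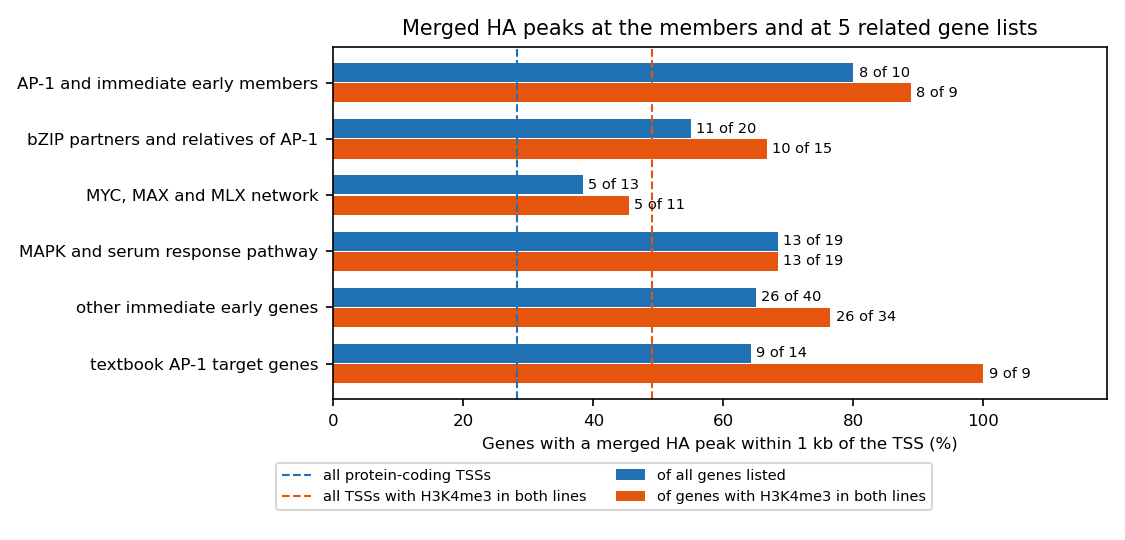
Share of genes in percent with a merged HA peak within 1 kb of the TSS, for the 10 genes and 5 related lists. Blue bars use all genes listed and orange bars the genes with H3K4me3 in both lines, with counts beside the bars. Dashed lines are the same shares over all protein coding TSSs (28.2%) and over all TSSs with H3K4me3 in both lines (49%), and only the orange bar of the MYC network (5 of 11) ends below its line.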

How the data were processed

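Native ChIP-Seq peak lists of HA (3 replicates and their merged list) and H3K4me3 (1 library per line) were used. Per the labels and the study's methods, the authors trimmed reads with Trim Galore 0.6.0, aligned them as pairs to hg19 (GRCh37) with Bowtie2 2.3.5.1, filtered on a MAPQ of 30 with SAMtools 1.9, removed duplicates with Picard and called peaks with MACS2 3.0.0a6 at a q-value of 0.05 and a minimum length of 147 bp. The deposited replicate lists give each summit's fold enrichment over the HA control as a ratio, the −log10 of its p-value and q-value, and a score derived from the q-value. The deposited merged HA and H3K4me3 lists hold intervals in bp from combined narrow and broad calls, with no counts and no score. Removal of duplicates caps the fragments counted at a position, and the MAPQ filter drops reads that match several places.

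From these, intervals within 1 kb of the 5′ end of GENCODE version 44 genes (lifted to GRCh37) were collected (Python 3.11.15, scipy 1.17.1, numpy 2.4.6). All 24 chromosomes of the lists fitted the GRCh37 lengths. Lines with the same interval were read as 1 peak, represented by the line of highest fold enrichment, so a summit can lie beyond 1 kb. Positions count from the TSS along the gene, positive downstream. Fragments at summits were recovered from the fold enrichment and p-value for 95.3%, 99.6% and 99.4% of summits. In a test on simulated data, 4000 summits for each replicate, 98.3 to 99.7% were resolved and 100% of these were right. The simulated summits followed the formula that the recovery inverts, and most had the commonest background. They test the calculation and not whether the formula holds for these lists. In the lists, the median background at a summit before scaling was 2 in each replicate, against a commonest value of 1.33, 1.55 and 1.41. Genes named were all 10 members and, from each related list, the 3 highest in mean fold enrichment among genes called in all replicates, and the 2 with the widest ProMMP2-3xHA H3K4me3 but no HA; 1 gene so chosen is not reported here. Fold enrichment relative to the promoter median was tested over replicates by exact permutation of the sign. The members and lists were chosen with earlier results of these data known. Alternatives varied the window, the TSS, the q-value, the replicates and the width measure.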

Additional observations from a re-analysis of the deposited data

How the results depend on the processing

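Of 51 alternative values of the 9 counts and medians, 47 stayed within 1.5 times the value reported. Requiring a peak or region over the TSS base itself lowered the genes with HA in every replicate from 7 to 3, those with ProMMP2-3xHA H3K4me3 from 9 to 5 and the related genes with a merged HA peak from 64 to 35. The merged HA width of 2030 bp became 572.5 bp when measured as the mean covered length in the replicate lists. The second measure stops at 1 kb from the TSS and the first does not, so part of the fall comes from the measure. The genes with a merged HA peak ranged from 6 to 8 over the windows and TSS definitions. With the canonical TSS, those with H3K4me3 rose from 9 to 10 in each line. Leaving out each replicate in turn kept the genes with a peak in every remaining replicate at 7 to 7 and those with downstream summits at 6 to 6, and moved those above the median in every remaining replicate between 4 and 5. At a q-value of 0.001, with a window of 500 bp or with summits within 1 kb the genes above the median were 3 (FOS, JUN and JUNB) in place of 4, and JUND was lost. With only regions over the TSS base, the median width ratio rose from 0.682 to 0.866. Among the log2 ratios of single genes to the median, 46 of 53 kept their direction. The reversals were at genes near 0, namely FOSL1 at a q-value of 0.01 (-0.043) and 0.001 (-0.12), FOSL2 and EGR1 at a q-value of 0.001 (-0.046 and -0.064), FOSL1 without replicate 2 (-0.12, in a range up to 0.071 over the replicates left out), EGR1 without replicate 2 (-0.0080, in a range up to 0.13), and EGR1 with summits within 1 kb (-0.083), a choice made after seeing the data. The cause was not tested. No paired analysis was possible because the HA group has replicates 1 to 3 and each H3K4me3 group 1 library, so groups share fewer than 2 replicate numbers. Depth limits absence calls at FOSB, ATF3 and, in replicates 1 and 2, MYC.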
